A study of Mus musculus with 4 samples.

Results

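The renin-angiotensin system genes described here are 9 genes (Ren1, Agt, Ace, Agtr1a, Agtr1b, Agtr2, Mas1, Enpep and Lnpep), taken by name from 21887 protein-coding genes of the autosomes and sex chromosomes. RNA polymerase II (Pol II) was mapped by chromatin immunoprecipitation and sequencing (ChIP-seq) in heart, lung, liver and kidney of C57BL/6 mice. The organs were taken from 2 mice, flash frozen, crosslinked and sheared together in a 96-well plate by an ultrasound instrument (PIXUL), and Pol II was precipitated with the 4H8 antibody to the C-terminal domain of its largest subunit. No treatment or altered allele is named for any group, and the sources used here give neither the age nor the sex of the mice. Each organ has 1 list of called Pol II regions, so the values below carry no error between animals and the organs were compared without a test. The comparison addressed is how Pol II binding at the same genes differs between these organs.

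The renin-angiotensin system controls blood pressure and salt balance. The liver secretes angiotensinogen (Agt), renin (Ren1) from the juxtaglomerular cells of the kidney cuts it to angiotensin I, and angiotensin-converting enzyme (Ace), abundant on the endothelium of the lung, cuts that to angiotensin II. Angiotensin II acts on the type 1 receptors (in rodents Agtr1a and Agtr1b) and the type 2 receptor (Agtr2), Mas1 is a receptor of a shorter angiotensin peptide, and the aminopeptidases Enpep and Lnpep act on angiotensins. Pol II regions over a gene body mark polymerase on that gene and not the amount of mRNA or protein.

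Each gene has 3 readings. The covered percent is the share of the annotated gene span, introns included, that lay inside called regions, and a gene is called covered at 50% or more. A region near an end is a region that overlaps the 1 kb either side of the lower or the higher end of the gene. Tags per kb is the authors' tag count of each region, scaled by them to 10000000 tags per list, shared out evenly along the region, summed over the gene and divided by the gene span in kb. Intervals are exact 95% Poisson intervals on the tags behind a value. They cover counting error only, not differences between animals or the error of sharing tags out evenly along a region. The caller counted 1 tag per bp at most, which limits PCR copies at the same position. Any copies that remain are not independent molecules, so the intervals may be too narrow even for counting error. A value of 0 means that no region was called, not that polymerase was absent.

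Depth differed, with 9880184 tags behind the heart list, 16589890.5 behind kidney, 20058183 behind liver and 13296938 behind lung. The caller's threshold for a 500 bp window came to 18.2 tags per kb for heart, 14.5 for kidney, 14.0 for liver and 16.5 for lung. Deposited regions could average less than this, as did a heart region beside Ace with 16.2 tags per kb. In the list of their own organ, 6 of 6 heart muscle, kidney tubule, hepatocyte and lung epithelium genes were covered. The sets were chosen with earlier results of these data known, so these counts are no test of the labels. In the lists of the other organs the first 3 of these marker sets had 0 covered genes, and the lung epithelium set had 2 in liver (Sftpc and Ager), 1 in heart and 1 in kidney (Ager in both).

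The bases before the starts of transcription that the following results turn on are shown here, because the called regions began before, at or after these starts in different organs. Sequences are from RefSeq on GRCm38.p6, the assembly behind mm10, 250 bases each, 5′ to 3′ on the strand of the gene, and end at the base before the start. Capitals mark TATAAA (the TATA box letters) and GGGCGG (the GC box letters) on either strand, so that TTTATA and CCGCCC are their matches on the opposite strand. Of the 9 genes, 8 matched the promoter table, with 9 promoters because Ace has 2.
Ren1, chr1:133350424-133350673, plus strand: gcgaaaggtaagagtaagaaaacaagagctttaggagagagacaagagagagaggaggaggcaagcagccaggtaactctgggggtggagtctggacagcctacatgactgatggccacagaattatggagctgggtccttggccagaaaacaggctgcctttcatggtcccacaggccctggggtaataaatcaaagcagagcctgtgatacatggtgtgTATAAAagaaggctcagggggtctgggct
Agt, chr8:124569707-124569956, minus strand: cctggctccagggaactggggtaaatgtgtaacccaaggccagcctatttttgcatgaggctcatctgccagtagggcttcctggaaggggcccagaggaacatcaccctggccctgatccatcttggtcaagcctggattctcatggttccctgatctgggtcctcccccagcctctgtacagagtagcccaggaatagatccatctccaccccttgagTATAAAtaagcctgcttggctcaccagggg
Ace first start, chr11:105967698-105967947, plus strand: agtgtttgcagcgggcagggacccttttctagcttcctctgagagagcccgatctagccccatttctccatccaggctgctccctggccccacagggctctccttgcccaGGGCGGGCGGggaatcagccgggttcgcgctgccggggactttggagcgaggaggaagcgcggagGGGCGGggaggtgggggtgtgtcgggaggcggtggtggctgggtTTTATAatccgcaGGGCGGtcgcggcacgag
Ace internal start, chr11:105974939-105975188, plus strand: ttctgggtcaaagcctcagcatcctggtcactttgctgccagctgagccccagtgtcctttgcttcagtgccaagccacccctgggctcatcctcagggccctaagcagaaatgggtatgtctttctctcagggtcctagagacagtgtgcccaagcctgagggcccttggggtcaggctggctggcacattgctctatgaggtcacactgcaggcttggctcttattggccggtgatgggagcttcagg
Lnpep, chr17:17624490-17624739, minus strand: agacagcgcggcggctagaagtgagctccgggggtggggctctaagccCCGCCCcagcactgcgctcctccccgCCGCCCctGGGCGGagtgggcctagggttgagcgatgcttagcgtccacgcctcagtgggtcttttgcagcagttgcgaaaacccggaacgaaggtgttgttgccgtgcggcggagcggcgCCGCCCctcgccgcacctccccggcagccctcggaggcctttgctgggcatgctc
TATAAA was found in 5 of the 9 promoters (Ren1, Agt, the first start of Ace, Agtr1b and Enpep), against 12.4% of 32851 promoters of the same 250 bases. It began 29 bases before the start in Ren1, 30 in Agt, 31 in Ace, on the opposite strand, and 31 in Agtr1b, whereas in Enpep it began 52 bases before, on the opposite strand. GGGCGG was found in 2 of the 9 (the first start of Ace and Lnpep), against 32.7%, and CCAAT in 5 (the internal start of Ace, Agtr1b, Agtr2, Mas1 and Enpep), against 33.8%. TGACG (17.8% of promoters), TGACGTCA (1.55%), which contains TGACG, and AGAACA (16.1%) were found in 0 of the 9. These are letter matches on both strands and not binding sites.

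Across the 9 genes, 5 were covered in some organ, against 33.1% of all protein-coding genes. Liver covered 3 (Ren1, Agt and Agtr1a), heart covered Lnpep, lung covered Ace, and kidney covered 0. Of all protein-coding genes, 21.9% were covered in liver, 16.1% in heart, 15.1% in lung and 21.1% in kidney. The same 5 genes had at least 2 times as many tags per kb in the organ that covered them as in every other organ, which was so for 12.1% of protein-coding genes. By organ this held for 5.92% of protein-coding genes in liver, 2.67% in heart, 0.854% in lung and 2.68% in kidney. Regions near an end were found for 6 of the 9 genes in kidney, 6 in liver, 5 in heart and 3 in lung, and for 56.8%, 53.3%, 51.4% and 54.7% of protein-coding genes in the same order. A region inside the gene was found for 7 of the 9 in kidney, 6 in liver, 5 in heart and 4 in lung, against 61%, 56.7%, 57% and 60.3% of protein-coding genes. Of the 8 genes with a known strand, 5 had a region within 1 kb of the start in kidney, 4 in liver, 4 in heart and 3 in lung, against 53.5%, 50.1%, 47.6% and 50.8% of 17492 genes. The counts of regions near an end, inside the gene or near the start rest on few genes and are no result about the 9 genes. Agtr1b and Agtr2 had no region in any list, as did 27% of protein-coding genes, there counted without a region in the gene or near an end. The median of the 9 genes was 2.60 tags per kb in kidney, 2.53 in liver, 1.003 in heart and 0 in lung, against medians of 0.907, 0.452, 0.481 and 0.685 over all protein-coding genes.

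**Figure D1:**
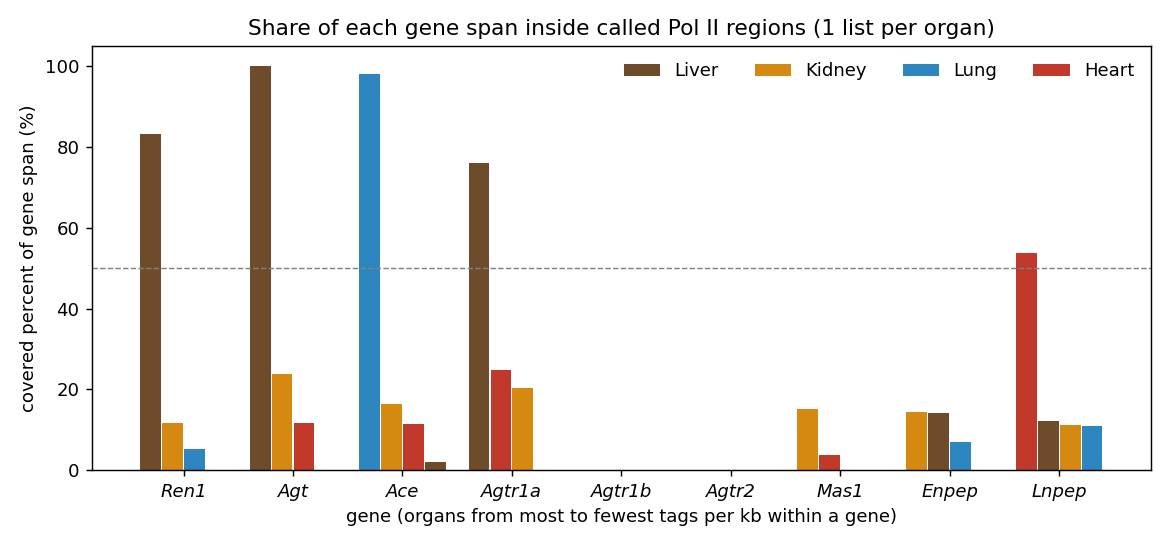
Covered percent of the gene span (vertical axis, %) for the 9 genes (horizontal axis), with a bar per organ and the organs of a gene ordered from most to fewest tags per kb; the dashed line is the 50% call. Liver bars of Ren1 (83.1%), Agt (100%) and Agtr1a (76.0%), the lung bar of Ace (97.9%) and the heart bar of Lnpep (53.7%) stand above the line, and Agtr1b and Agtr2 have no bar.

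**Figure D2:**
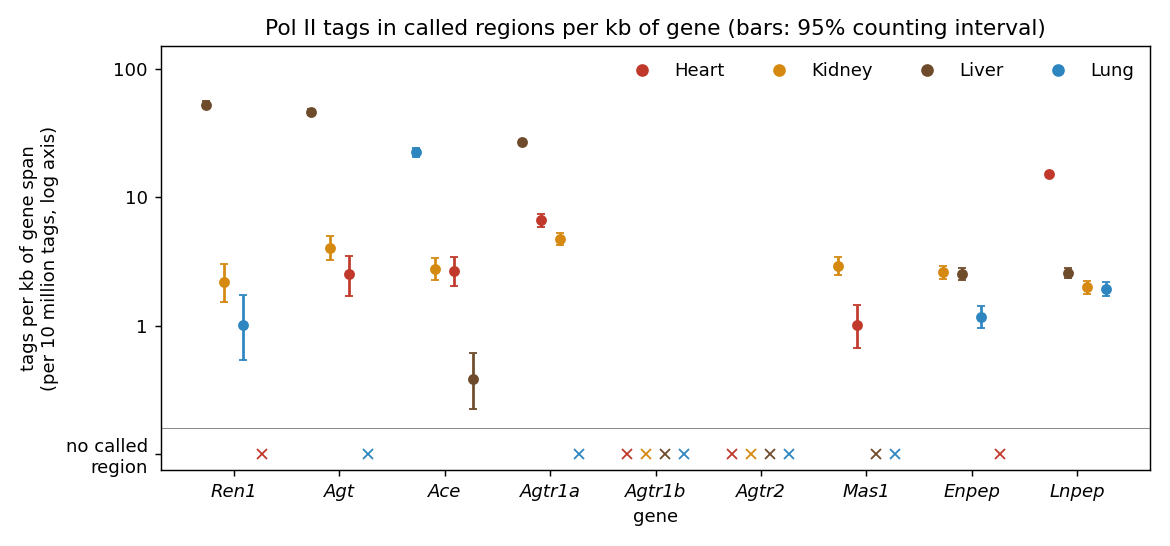
Tags per kb of gene span on a log axis for the 9 genes, with a point per organ and its exact 95% Poisson interval; crosses mark organs with no called region. The points highest within their gene are liver for Ren1, Agt and Agtr1a, lung for Ace, heart for Lnpep, and kidney for Mas1 and Enpep.

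Agt, the precursor of all angiotensins, lay wholly inside a liver region. The gene (chromosome 8, 124556587 to 124569706 in mm10, minus strand, 13.1 kb) was covered over 100% in liver, with 23.9% covered in kidney, 11.8% in heart and 0% in lung. It had 45.8 tags per kb in liver (interval 43.3 to 48.5), 4.04 in kidney (3.24 to 4.98) and 2.50 in heart (1.69 to 3.48), and no region in lung. Liver stood 11.3 times above kidney, and the intervals of kidney and heart overlapped. Among the regions with the top 50% of scores the liver region was left out, so that Agt had 0 tags per kb in liver against 3.38 in kidney, and no organ was called. With all regions, the liver value exceeded that of 98.2% of protein-coding genes in the same list.

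The liver region of Agt ran for 19.3 kb (chromosome 8, 124554667 to 124573985), from -4.28 kb to 15.04 kb relative to the start, and overlapped no other protein-coding gene. It held 885.2 tags per 10000000. The heart region was a single stretch of 2117 bp from -0.570 to 1.55 kb around the start, with 45 tags, and took in all 250 bases printed above for Agt. In kidney a stretch of 2638 bp began 0.177 kb after the start and another lay before it, from -3.39 to -0.886 kb, so the kidney list left out those 250 bases. Within covered stretches the density was 45.8 tags per kb in liver, 21.3 in heart and 16.9 in kidney. The nearest genes on either side, Capn9 and Cog2, had 2.11 and 0.368 tags per kb in liver.

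Ren1 had its highest value in liver, inside a region that also spans the neighbouring genes. Ren1 (chromosome 1, 133350674 to 133360320, plus strand, 9.65 kb) was covered over 83.1% in liver, 11.8% in kidney, 5.18% in lung and 0% in heart. It had 52.5 tags per kb in liver (49.3 to 55.8), 2.19 in kidney (1.52 to 3.04) and 1.01 in lung (0.540 to 1.73), with no region in heart. Liver stood 24.0 times above kidney, and the intervals of kidney and lung overlapped. The liver value exceeded that of 99.0% of protein-coding genes, and the kidney value that of 58.8%.

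Most of the liver tags of Ren1 came from a region of 33.7 kb (chromosome 1, 133352543 to 133386263) of which 23.1% lay in Ren1. The region went on across all of Etnk2, an ethanolamine kinase gene that begins 3.14 kb beyond Ren1, and into Sox13. Etnk2 was covered over 100% in liver, 64.3% in kidney, 10.1% in lung and 6.78% in heart, with 64.4, 15.03, 1.83 and 1.41 tags per kb in the same order. Since tags are shared out evenly along a region, how many of the 2170.2 tags lay over Ren1 and how many over Etnk2 cannot be told apart. With only regions that lie at least 50% inside the gene, Ren1 had 0 tags per kb in liver, against 2.19 in kidney and 1.01 in lung.

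The start of Ren1 lay inside another liver region, of 6.33 kb, from -6.09 to 0.241 kb relative to the start, which took in the 250 bases printed above. It held 152.6 tags, or 24.1 per kb, against 64.4 per kb in the longer region, and a gap of 1627 bp separated them. In kidney, 2 stretches of 500 and 635 bp lay in the gene, from 0.737 to 1.24 kb and from 2.88 to 3.51 kb, with 12.1 and 9.04 tags, and the lung list held a single 500 bp stretch with 9.78 tags. The nearest kidney region was 738 bp from the start. In kidney the juxtaglomerular genes Akr1b7 and Rgs5 had no region, Gja4 had 3.22 tags per kb and Crip1 12.7. In liver they had 1.49 (Akr1b7), 0 (Rgs5), 0 (Gja4) and 4.84 (Crip1) tags per kb, in lung 0, 0, 3.96 and 29.3, and in heart 0, 0, 6.56 and 69.8, and the part of these cells in the Ren1 values was not tested. In a whole organ, fewer cells of a type and less polymerase per cell cannot be told apart.

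Ace was covered over nearly its whole span in lung. Ace (chromosome 11, 105967948 to 105989964, plus strand, 22.0 kb) was covered over 97.9% in lung, with 16.4% covered in kidney, 11.4% in heart and 2.16% in liver. It had 22.4 tags per kb in lung (20.7 to 24.2). The value was 2.75 in kidney (2.25 to 3.36), 2.66 in heart (2.02 to 3.45) and 0.385 in liver (0.224 to 0.616). Lung stood 8.12 times above kidney, kidney and heart overlapped in their intervals, and liver lay below both. The lung value exceeded that of 96.6% of protein-coding genes. Within covered stretches the order differed, with 22.8 tags per kb in lung, 23.2 in heart, 16.8 in kidney and 17.8 in liver, and by this measure no organ was called highest.

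The lung region of Ace ran for 26.7 kb, from 0.452 to 27.1 kb after the first start, and reached the start of Ace3, the next gene, which was covered over 15.5% in lung and 23.6% in kidney. The first start itself lay in a called region in heart, in a stretch of 2247 bp from -0.730 to 1.52 kb with 52.1 tags, and in no region of the other lists. The kidney list began 0.649 kb after it. The internal start, 7.24 kb into the gene and known from male germ cells as the source of a shorter enzyme, lay in a region in lung and in kidney. The kidney stretch there ran from 6.92 to 9.02 kb with 34.7 tags and was the longest of the 3 in that gene. The single liver region lay at the far end, from 21.5 to 23.2 kb, with 27.9% of its length in the gene.

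Endothelial genes were measured beside Ace. The summed tags per kb of 6 endothelial genes (Pecam1, Cdh5, Tek, Kdr, Tie1 and Egfl7) were 84.1 in lung, 25.6 in kidney, 160.0 in heart and, for the liver list, 32.4, with 3 genes covered in each of lung and heart and 1 in each of kidney and liver. Cdh5 had no region in kidney and liver, and Tek none in liver. Heart had a higher endothelial sum than lung and fewer tags per kb over Ace. Of the 6 genes, Tek alone had more tags per kb in lung (5.16) than in heart (4.08). Whether the share of endothelial cells sets the Ace values was not tested.

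**Figure D3:**
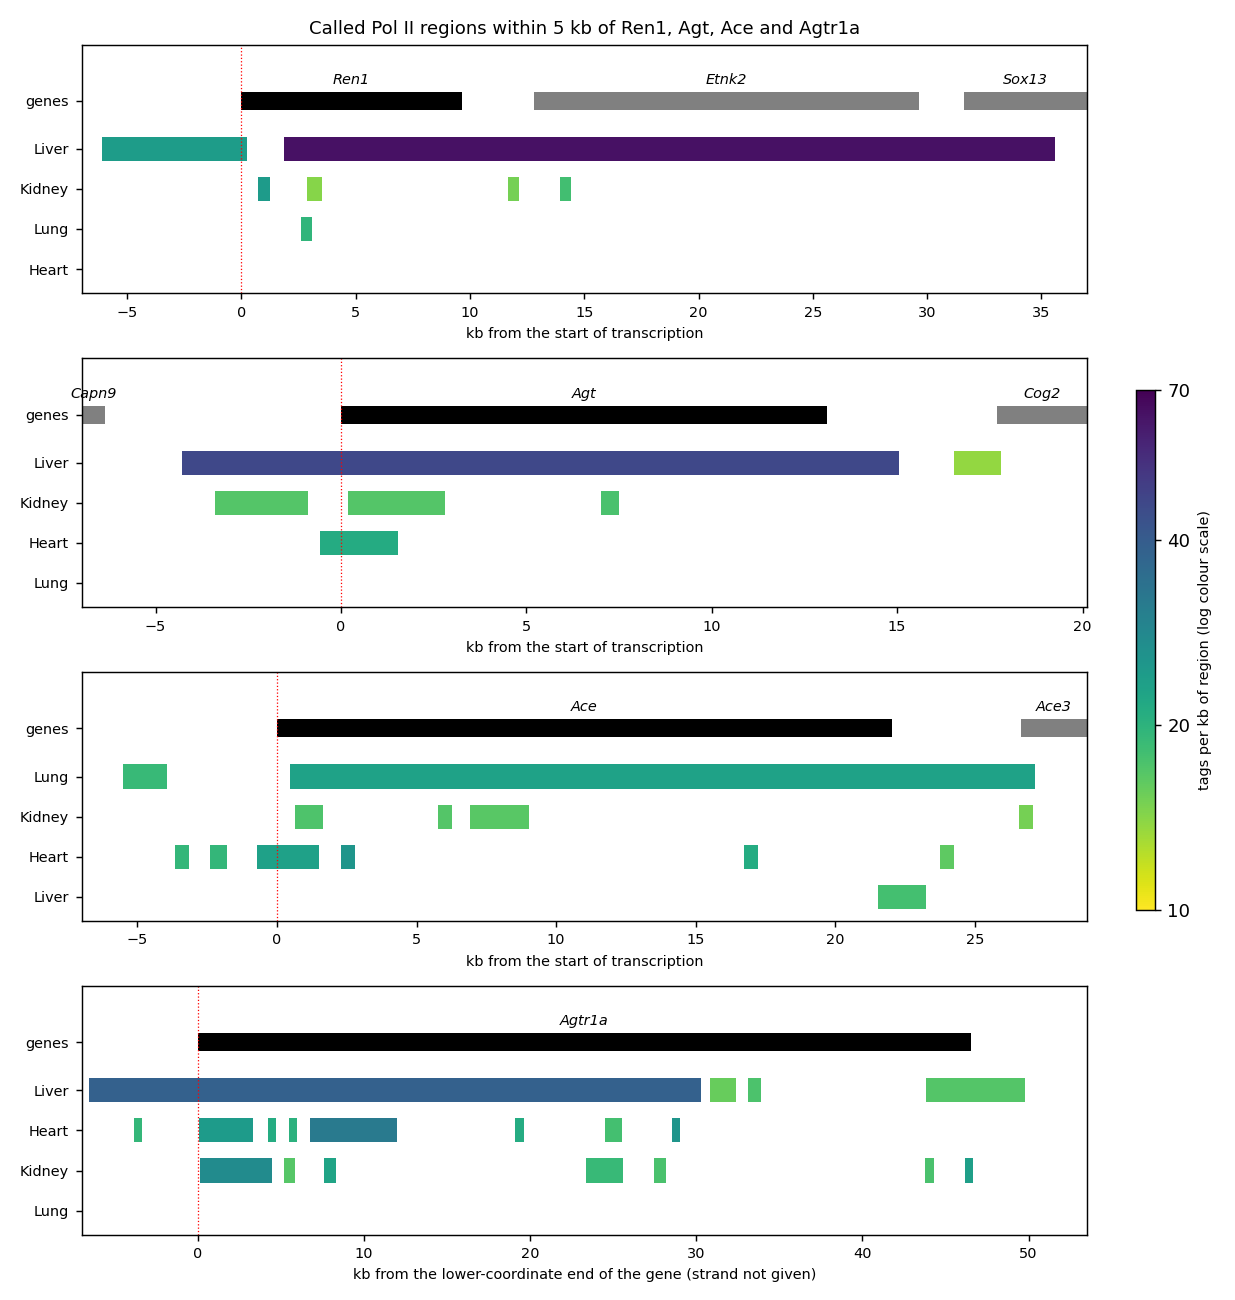
Called regions within 5 kb of Ren1, Agt, Ace and Agtr1a in the 4 organs, placed in kb from the start of transcription (for Agtr1a from its lower-coordinate end), with the gene in black, neighbouring genes in grey and colour for tags per kb of the region on a log scale. A 33.7 kb liver region runs from Ren1 across Etnk2, a 19.3 kb liver region holds all of Agt, a 26.7 kb lung region spans Ace, and a 36.8 kb liver region holds the lower-coordinate part of Agtr1a.

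The receptor genes split into 1 gene with long regions, 1 with short ones and 2 with none. Agtr1a, the main type 1 receptor gene of rodents (chromosome 13, 30336356 to 30382867, 46.5 kb, strand not given in the table used), was covered over 76.0% in liver, 24.7% in heart, 20.4% in kidney and 0% in lung. It had 26.8 tags per kb in liver (25.8 to 27.9), 6.58 in heart (5.85 to 7.36) and 4.70 in kidney (4.23 to 5.21), and the 3 intervals were separate. Liver stood 4.08 times above heart and exceeded 91.2% of protein-coding genes. The nearest protein-coding genes, Mboat1 and Uqcrfs1, lay 89.7 and 157 kb away, and no region over Agtr1a overlapped another protein-coding gene.

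The main liver region of Agtr1a ran for 36.8 kb, from -6.52 to 30.3 kb relative to the lower-coordinate end, with 1413.9 tags or 38.4 per kb. In heart and kidney 7 stretches each lay in the gene. The first heart stretch, of 3244 bp, held 78.4 tags and a longer one of 5211 bp, from 6.78 to 11.99 kb, held 165.0 tags, whereas the first kidney stretch, of 4344 bp, held 120.0. The lower-coordinate part of the gene, up to its midpoint, held most of the tags in every list with regions, with 38.4 tags per kb in liver, 11.8 in heart and 6.34 in kidney, against 15.2, 1.35 and 3.06 in the rest of the gene. Within covered stretches the density was 35.3 tags per kb in liver, 26.6 in heart and 23.0 in kidney, and by this measure no organ was called highest.

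Agtr1b, the other type 1 receptor gene of rodents (chromosome 3, 20314473 to 20367177, minus strand, 52.7 kb), and Agtr2, the type 2 receptor gene (chromosome X, 21484624 to 21488833, plus strand, 4.21 kb), had no called region in the gene or within 1 kb of an end in any of the 4 lists. Agtr1b keeps TATAAA at a distance from its start close to that of Ren1 and Agt. How tags that match both Agtr1a and Agtr1b, which are close paralogs, were placed is not stated in any source used here. Mas1 (chromosome 17, 12838841 to 12868150, minus strand, 29.3 kb) was covered over 15.1% in kidney and 3.67% in heart, with no region in liver and lung. It had 2.91 tags per kb in kidney (2.46 to 3.44) and 1.003 in heart (0.671 to 1.44), a ratio of 2.90. Divided by covered length, Mas1 had 27.3 tags per kb in heart and 19.3 in kidney, the reverse order. The heart region lay at 0.535 to 1.61 kb after the start, whereas the 4 kidney regions lay between 8.47 and 23.4 kb, with none within 1 kb of an end. Igf2r, 69.1 kb away, had 2.91 tags per kb in kidney and 22.6 in heart, the opposite order to Mas1 per kb of gene span.

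The aminopeptidase genes had regions at their starts in several organs. Enpep, aminopeptidase A, which removes the first residue of angiotensin II (chromosome 3, 129269177 to 129332749, minus strand, 63.6 kb), was covered over 14.4% in kidney, 14.3% in liver and 6.99% in lung, with no region in heart. It had 2.60 tags per kb in kidney (2.30 to 2.92), 2.53 in liver (2.26 to 2.82) and 1.17 in lung (0.952 to 1.43). Kidney and liver did not differ beyond counting error, and lung lay below them. The start lay in a region in kidney (2112 bp, 19.7 tags per kb), liver (3277 bp, 21.4 tags per kb) and lung (2457 bp, 17.1 tags per kb). The first 5 kb of the gene were covered over 68.5% in kidney, 47.2% in liver and 78.9% in lung, where the means over 11080 genes of 10 kb or more with known strand were 37.3%, 35.9% and 30.1%. The kidney list alone also held regions in the last 5 kb of Enpep, covering 58.8% of it with 11.9 tags per kb, and the liver list held a stretch of 4415 bp with 80.3 tags from 32.1 to 36.5 kb.

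Lnpep, the insulin-regulated aminopeptidase that binds angiotensin IV (chromosome 17, 17527723 to 17624489, minus strand, 96.8 kb), was covered over 53.7% in heart, 12.3% in liver, 11.2% in kidney and 11.1% in lung. It had 15.02 tags per kb in heart (14.3 to 15.8), 2.57 in liver (2.35 to 2.81), 1.98 in kidney (1.77 to 2.21) and 1.93 in lung (1.69 to 2.18). Heart stood 5.84 times above liver, and the intervals of kidney and lung overlapped. The start lay in a region in all 4 lists, which took in the 250 bases printed above, the sequence with 4 GGGCGG matches and no TATAAA. Lnpep and Ace were the only members with regions in all 4 lists. The share of all protein-coding genes with regions in all 4 lists is not given here, so no result is read from this.

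In heart the longest region of Lnpep lay over the start. This region, of 28.2 kb from -2.57 to 25.6 kb, had 895.2 tags or 31.8 per kb, the next long ones had 28.9 per kb (26.4 to 33.3 kb) and 23.0 per kb (42.3 to 52.7 kb), and the last, of 1167 bp, ended at 71.5 kb with 16.9 per kb. The density did not fall evenly, since a stretch of 1392 bp from 34.0 to 35.4 kb had 34.6 tags per kb. No list had a region in the last 5 kb of the gene. In liver, kidney and lung the region at the start held 133.9, 104.3 and 92.5 tags over 5421, 5544 and 3294 bp, and the later stretches reached to 32.2, 39.98 and 60.7 kb. Within covered stretches the density was 28.0 tags per kb in heart, 20.9 in liver, 17.7 in kidney and 17.4 in lung. Divided by covered length, no organ was 2 times above the others, and at a call of 75% of the span Lnpep was covered in no organ.

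**Figure D4:**
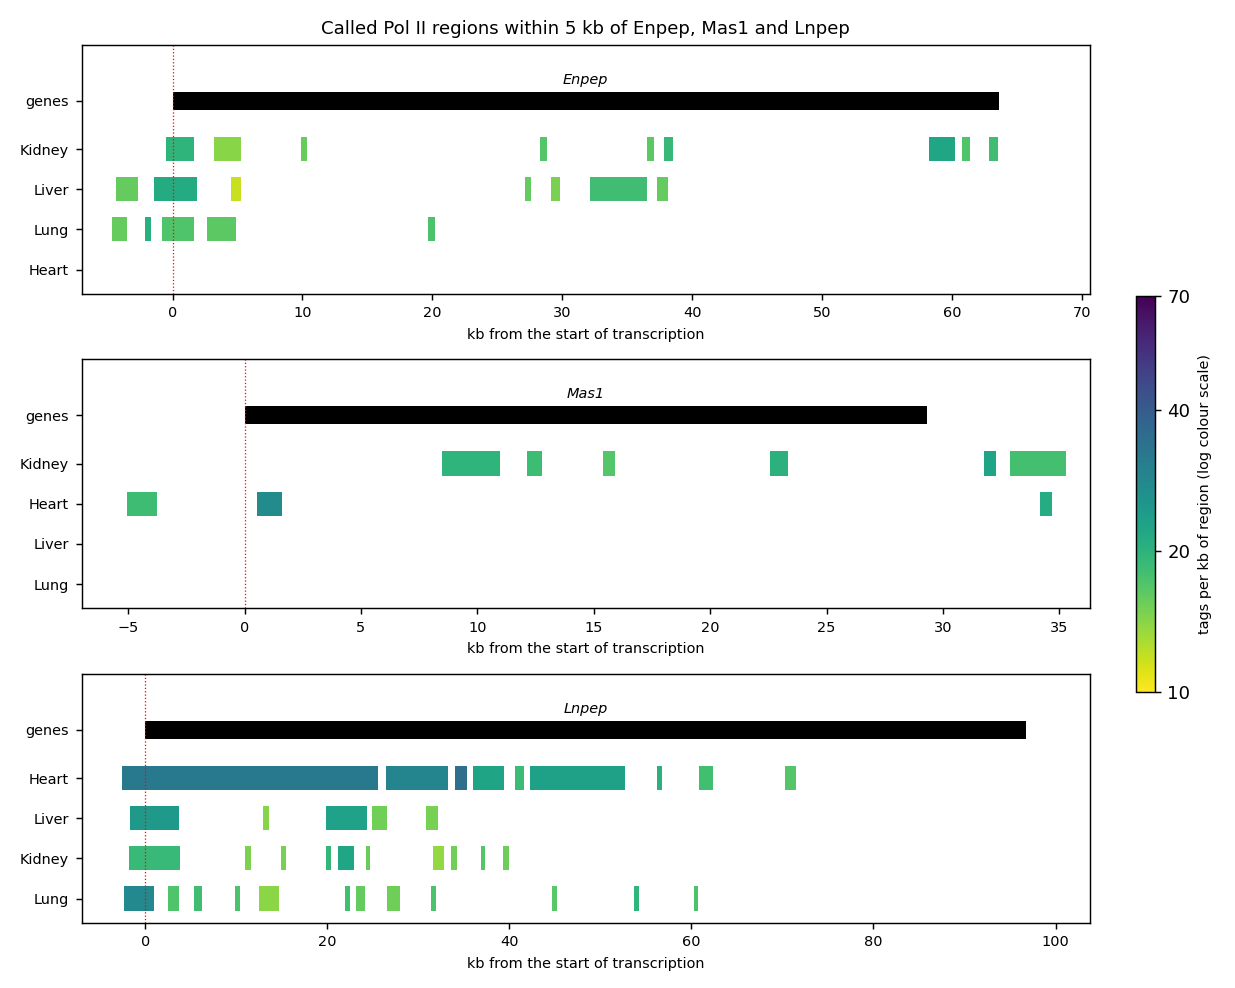
Called regions within 5 kb of Enpep, Mas1 and Lnpep in the 4 organs, in kb from the start of transcription, with colour for tags per kb of the region on a log scale. Regions sit at the start of Enpep in kidney, liver and lung and at the start of Lnpep in all 4 organs, and heart regions continue into Lnpep to 71.5 kb.

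Genes with the most similar levels over the 4 organs were taken by the Euclidean distance of log2(tags per kb + 1), leaving out genes within 1 Mb, over 4 values only. For Ren1 they were Ttc39c (distance 0.55), C3 (0.60) and N4bp2l1 (0.62), with a Ren1 liver value mostly from the region that also spans Etnk2. For Agt they were Cyp27a1 (0.48), Cabp2 (0.61) and Cilp (0.68), and for Agtr1a Slc25a13 (0.53), Fbxo21 (0.57) and Tppp2 (0.63). For Ace they were Trim3 (0.64), Gm52612 (0.70) and Rab27a (0.88). For Lnpep they were Trmt5 (0.37), Ctnnbip1 (0.44) and Arhgap21 (0.46). C3 had 60.7 tags per kb in liver, 1.87 in kidney, 1.33 in lung and 0.418 in heart.

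Of 32 other genes of the pathway, 9 were covered in kidney, 5 each in liver and lung and 4 in heart, beside the 21.1%, 21.9%, 15.1% and 16.1% of protein-coding genes given above. Regions near an end were found for 22 of the 32 for kidney, 17 for liver, 20 for lung and 15 for heart, beside 56.8%, 53.3%, 54.7% and 51.4% of protein-coding genes, and no result about the list is read from these counts. Their median was 3.01 tags per kb in kidney and 2.15 in lung, with 0.0855 in liver and 0.558 in heart. Among 17 peptidases that make or break angiotensins, 5 were covered in kidney (Anpep, Ctsa, Ctsb, Rnpep and Klk1), 3 in liver (Anpep, Ctsa and Ctsb), 2 in lung (Ctsa and Ctsb) and 3 in heart (Ctsa, Ctsb and Ctsd). Klk1, the tissue kallikrein gene, was covered over 66.7% in kidney, with 11.5 tags per kb, and had no region in the other lists. Ctsd, the lysosomal protease cathepsin D, had 26.7 tags per kb in heart against 8.31 in kidney, 5.90 in lung and 3.23 in liver, and its heart region also overlapped Ifitm10. Regions over Ctsa also overlapped Neurl2 and Pltp, and those over Ctsb Fdft1, in every organ.

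Mme and Anpep, peptidases of the kidney brush border, were highest in different organs. Mme, neprilysin, had 3.79 tags per kb in kidney, 0.527 in lung, 0.504 in liver and 0 in heart. Anpep, aminopeptidase N, had 13.5 tags per kb in liver, 9.33 in kidney, 6.01 in lung and 0.613 in heart. Thop1, thimet oligopeptidase, had 14.9 tags per kb in liver and 1.94 in heart, with a liver region that also overlapped Creb3l3 and Map2k2. The mast cell protease genes Cma1 and Mcpt4 and the cathepsin G gene Ctsg had no region in any list, and Cpa3 had 0.325 tags per kb in lung alone.

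Among 6 receptors and receptor partners, Agtrap, whose protein binds the type 1 receptor, was covered over 100% in kidney with 21.2 tags per kb, and had 11.9 in heart, 3.33 in lung and 0 in liver. Igf2r was covered over 73.2% in heart. Atp6ap2, the prorenin receptor, had 0.680 tags per kb in kidney, 0.215 in heart, 0.0459 in liver and 0 in lung, and Mrgprd, Bdkrb1 and Bdkrb2 had no region in any list. Among 9 genes of aldosterone and sodium handling, Hsd11b2, which inactivates glucocorticoids in aldosterone target cells, had 21.6 tags per kb in kidney, 13.6 in lung, 6.58 in heart and 0 in liver, and its kidney region also overlapped Atp6v0d1. Scnn1a, a subunit of the epithelial sodium channel, had 27.2 tags per kb in lung, 19.3 in kidney, 18.8 in liver and 6.44 in heart, with lung, kidney and liver regions that also overlapped Ltbr and Tnfrsf1a. Scnn1b and Scnn1g, its other subunits, had 5.66 and 8.56 tags per kb in lung, 1.66 and 3.18 in kidney, and no region in heart and liver. Slc12a3, the sodium-chloride cotransporter of the distal tubule, had 30.5 tags per kb in liver, where a region also overlapped Herpud1, and 27.1 in kidney, where one also overlapped Nup93, with 16.2 in heart and 10.9 in lung. Cyp11b1 and Cyp11b2, the last enzymes of corticosterone and aldosterone synthesis in the adrenal cortex, had no region in any list.

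**Figure D5:**
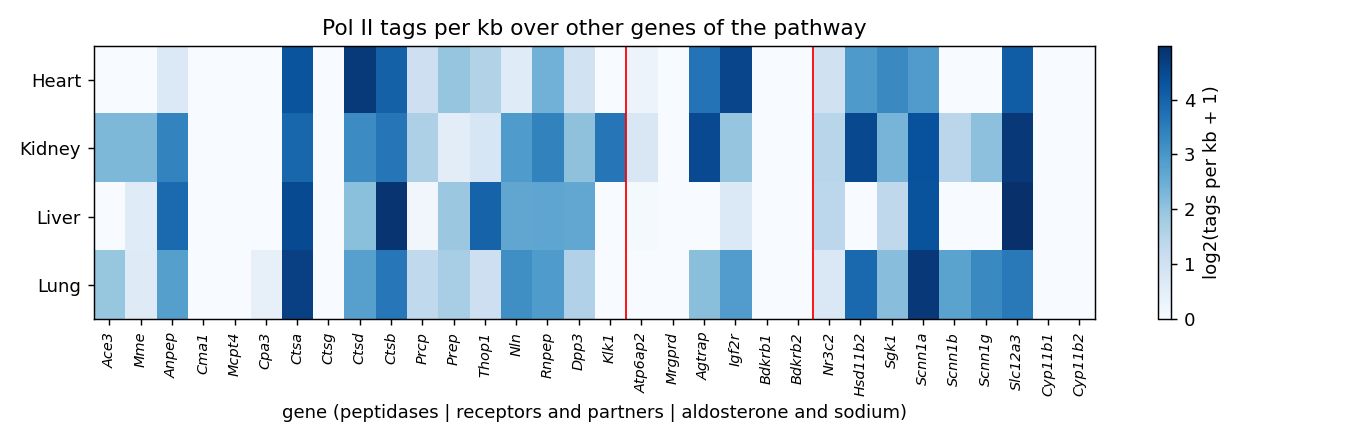
Tags per kb, as log2(tags per kb + 1), over 32 other genes of the pathway (columns, in the groups peptidases, receptors and partners, aldosterone and sodium) in the 4 organs (rows). Ctsa and Ctsb are dark in every organ, Klk1 in kidney alone, and Cma1, Mcpt4, Ctsg, Mrgprd, Bdkrb1, Bdkrb2, Cyp11b1 and Cyp11b2 are blank throughout.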

How the data were processed

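Pol II ChIP-seq libraries from 4 organs were read as 50-base pairs after Tn5 tagmentation, per the labels. The submitters' processing notes name Bowtie2 2.2.8, HOMER 4.8 and mm10. Per the file headers, HOMER's findPeaks (histone style) joined 500 bp windows that passed a Poisson p-value of 0.001 into regions, taking fragments as 78 bp long and counting 1 tag per bp at most. No control library stands in the recorded command, so open chromatin was not subtracted by one. Each region's deposited signal is a tag count set to a common total of 10000000. The deposited score and the deposited ratio (clonal fold change) are the caller's own, and the score served only to choose regions in an alternative. The authors also deposited the length of each region. No source used here states whether a list pools both mice or how reads with several matches were handled.

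Gene positions came from RefSeq on GRCm38.p6. Strand came from the promoter table, which held 17492 of 21887 protein-coding genes and 8 of the 9 members, but not Agtr1a. Interval code (Python 3.11.15, numpy 2.4.6, pandas 2.3.3, scipy 1.17.1) was tested on simulated regions. Covered percent and tags per kb were computed from overlaps of 1 bp or more. The named genes are all members, pathway genes covered in at least 1 organ or among the 3 with the most tags per kb in an organ, neighbours, and the 3 genes most alike; values of further pathway genes were picked with their values in view. A single gene of the original pathway list was left out of every count and is not reported here, and the 32 others were all counted and plotted. Members and lists were chosen with earlier results of these data known. Markers of podocytes, smooth muscle, adrenal cortex and mast cells were also listed. In kidney, 0 of 5, 1 of 6, 0 of 6 and 0 of 5 of them were covered, in liver 1, 1, 0 and 0, in lung 2, 0, 0 and 0, and in heart 2, 1, 0 and 0. Alternatives covered the regions used, the covered share, the window and the length that tags were divided by.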

Additional observations from a re-analysis of the deposited data

How the results depend on the processing

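Each organ has 1 list, so no value could be set against a spread between animals. No paired analysis was possible because no organ has a second list and no result comes from a test. The organ called highest was unchanged for the 5 called genes with regions of at least 10 tags and with equal numbers of regions by tags. Among the regions with the top 50% of scores, the liver region of Agt was left out, and Agt was then called in no organ. That region held 885.2 tags, and the score does not rank regions by tags. When tags were divided by the covered length, 2 genes (Ren1 and Agt) kept a highest organ, and Ace, Agtr1a and Lnpep lost it. For Ren1 the liver value there is mostly the even density of the region that also spans Etnk2. At 75% of the span 0 members were covered in heart, Lnpep being the gene lost. With regions at least 50% inside the gene 2 members (Agt and Agtr1a) were covered in liver. Ren1 was the gene lost, with 0 tags per kb in liver against 2.19 in kidney, and the highest organ was not called anew in that setting. With the top 50% of scores, 3 members had a region near an end in heart and 3 in liver. For the other 32 pathway genes, a 25% call gave 9 covered in heart and 12 in lung. A 75% call gave 4 for kidney, 3 for liver, 2 for lung and 1 for heart, and the top 50% of scores gave 4, 3, 1 and 2. The fewest tags were read in heart, where the caller's threshold for a window was also the highest.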
